A study of Mus musculus with 6 samples.

Results

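The genes described here are named for the proteins of the mitochondrial ribosome and were followed in mouse intestinal organoids after exposure to tyramine. They were chosen by name alone, as every gene whose symbol is Mrpl or Mrps followed by digits and at most 1 further letter. That gave 78 of the 24786 symbols counted, 49 with an Mrpl symbol (large subunit) and 29 with an Mrps symbol (small subunit). All 78 had counts above 0 in all 6 libraries and all passed the filter on low counts.

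Both groups are WT (wild type) organoids with 3 RNA-seq libraries each: 1 group was given 100 µM tyramine for 16 h, the other was the control. The sample titles and treatment labels of the control libraries name DMSO, a solvent, while the design text names control medium. In both groups the organoids had first been dissociated for 10 min. Organoids are cultured structures of gut epithelium, and tyramine is a trace amine made by decarboxylating tyrosine, which some gut microbes can do. No label says that libraries of a group came from separate mice or cultures, so the p-values rest on library-to-library spread that may be only technical.

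Mitochondria carry their own ribosome, which makes the few respiratory chain proteins that the mitochondrial genome encodes. Its ribosomal RNAs come from the mitochondrial genome, but each of its proteins is encoded in the nucleus, translated in the cytosol and imported. Some of these proteins have a counterpart in the bacterial ribosome and others were added in the mitochondrial lineage. The intestinal epithelium renews itself continuously, and its stem and progenitor cells rely in part on mitochondrial respiration.

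Total counts were 29176428, 32489563 and 29898545 in tyramine libraries 1, 2 and 3, and 29154975, 35035955 and 28316372 in control libraries 1, 2 and 3. Tyramine library 3 stood apart from the rest of its group: across genes, its log2 levels correlated with those of the other tyramine libraries at r = 0.927 to 0.932, against 0.946 between tyramine libraries 1 and 2 and 0.974 to 0.977 among the controls. Of 10 intestinal epithelium markers all were detected, with summed levels of 17944 to 20242 CPM (counts scaled for library size) in tyramine libraries and 20173 to 21727 CPM in control libraries. Krt18 and Cdh1, an epithelial keratin and E-cadherin, rose (Cdh1 not without control library 2), whereas Vil1, Cdx2, Epcam and Krt19 fell. Fibroblast markers summed to 9.88 to 10.5 CPM in tyramine libraries and 10.4 to 11.6 CPM in controls, and immune markers to 8.84 to 12.8 CPM and 5.82 to 10.0 CPM, with the B cell gene Cd79a at 0. Endothelial markers summed to 0.209 to 2.61 CPM in tyramine libraries and 0.439 to 1.25 CPM in controls, and enteric glia and neuron markers to 1.43 to 1.73 CPM and 1.42 to 4.31 CPM.

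Most mitoribosomal protein genes did not pass the test. A gene is said to have fallen or risen where edgeR's quasi-likelihood test gave a Benjamini-Hochberg adjusted p under 0.05 over the 12139 genes tested. By this rule 8 of the 78 members fell (10.3%), beside 13.3% of all genes tested that were called lower. A single member rose (1.28%), beside 12.5% of all genes called higher, and 69 did not pass. The share that fell was near the background and the share that rose was below it. Without control library 1 or control library 3, 5 members fell, beside 8.22% and 8.37% of all genes called lower. The member that rose was called in the full fit and, among the leave-outs, only without tyramine library 3. The members' median log2 fold change, tyramine minus control, was -0.23, with quartiles of -0.48 and 0.07, beside a median of 0.00 and quartiles of -0.63 and 0.49 over all genes tested. Of the members, 54 had a negative fold change and 24 a positive one, beside 6046 and 6093 of all genes tested. In 19 members (24.4%) all 3 tyramine values lay under all 3 control values, beside 23.6% of all genes tested. In 6 of the 78 members they all lay above, beside 2532 of the 12139 genes tested.

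The members' changes were small in size. On the log2 scale 54 of the 78 (69.2%) differed by less than 0.5, beside 46.7% of all genes tested, and 5 (6.41%) differed by at least 1, beside 27.2%. These shares were not matched for level or precision: the median SE was 0.257 for the members and 0.324 for all genes tested. The 95% interval lay within a log2 change of 1 in either direction for 40 members, of which 38 did not pass the test, whereas this held for 33.3% of all genes tested. The SD was larger among tyramine than among control libraries in 57 of the 78 members, beside 68.5% of all genes tested. The median rested in part on tyramine library 3: without it, the members' median log2 fold change was -0.11. In bulk RNA, a smaller share of cells that use these genes and less of their RNA per cell cannot be told apart.

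**Figure D1:**
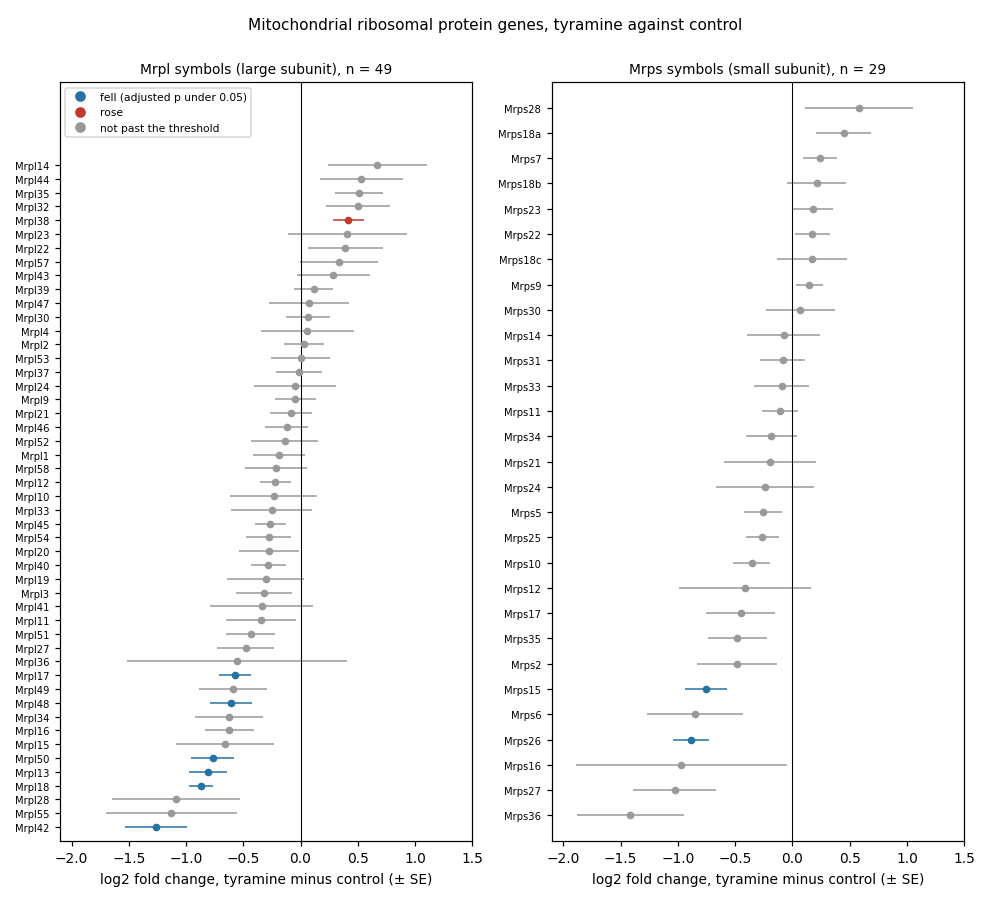
Log2 fold change, tyramine minus control, with its SE (bars), for the 49 Mrpl genes (left) and the 29 Mrps genes (right), each ordered by fold change. The 8 members that fell (blue) lie between -0.57 and -1.26, the single member that rose (red) at 0.42, and most points are grey and left of 0.

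Among large subunit genes, 6 fell, 1 rose and 42 did not pass. Mrpl18 encodes a protein of the central protuberance, a knob of the large subunit that contacts the small one, and its bacterial counterpart binds the small ribosomal RNA held there. Mrpl18 was measured at 116, 118 and 125 CPM in the tyramine libraries, against 218, 208 and 231 CPM in the control libraries. The groups were far apart and each was tight, with means of 120 ± 4.76 CPM under tyramine and 219 ± 11.7 CPM in control (SD, n = 3 each). Its log2 fold change was -0.87 ± 0.104 (SE, edgeR adjusted p = 0.000245), the smallest p among the members, and 54.7% of the control level remained. The gene lies on the minus strand of chromosome 17 at 12911349 to 12916345 (GRCm38) and shares 141 exon bases with Tcp1 on the other strand. Tcp1 had a log2 fold change of 0.03, with means of 1123 CPM under tyramine and 1101 CPM in control. Part of the counts of Mrpl18 may therefore belong to Tcp1.

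Mrpl13, a protein with a bacterial counterpart, was at 79.6, 56.3 and 58.3 CPM in tyramine libraries and at 112, 104 and 124 CPM in controls. Its log2 fold change was -0.81 ± 0.165 (SE, edgeR adjusted p = 0.0055). The gene (chromosome 15, 55534094 to 55557748) shares 330 exon bases with Mtbp on the other strand, whose log2 fold change of -0.75 did not pass (edgeR adjusted p = 0.101). The strand setting of the counting is not given, so the values of Mrpl13 and Mtbp cannot be fully told apart.

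Mrpl42, a protein found in mitochondrial but not bacterial ribosomes, had the lowest fold change of the members that fell. Its level was 31.1, 35.6 and 18.2 CPM in tyramine libraries and 51.9, 69.9 and 82.1 CPM in control libraries, with no overlap. The log2 fold change was -1.26 ± 0.271 (SE, edgeR adjusted p = 0.00734), so that 41.7% of the control level remained. The gene lies at 95480805 to 95501940 on the minus strand of chromosome 10, and no other gene shares its exons.

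Mrpl50 and Mrpl48 also encode proteins without a bacterial counterpart. Mrpl50 (chromosome 4, 49512596 to 49521093) was at 44.2, 34.0 and 35.4 CPM under tyramine and 75.6, 62.6 and 55.2 CPM in control, a log2 fold change of -0.77 ± 0.189 (SE, edgeR adjusted p = 0.0143). Mrpl48, another protein of the central protuberance, was at 33.3, 30.7 and 39.0 CPM under tyramine and 48.1, 57.9 and 50.5 CPM in control, a log2 fold change of -0.60 ± 0.182 (SE, edgeR adjusted p = 0.0345). In neither gene did the groups overlap. The call of Mrpl50 was lost without control library 1 or 2 (edgeR adjusted p = 0.0787 and 0.052). The call of Mrpl48 was lost with a replicate block (edgeR adjusted p = 0.0757) and without any 1 library other than tyramine library 3, with edgeR adjusted p values up to 0.158. Mrpl48 (chromosome 7, 100545751 to 100608301) shares 708 exon bases with Rab6a on the other strand, whose log2 fold change was -0.08.

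Mrpl17 has a bacterial counterpart that sits near the exit of the peptide tunnel. It was at 82.7, 68.6 and 79.3 CPM in tyramine libraries, against 109, 103 and 130 CPM in control libraries. The groups did not overlap and the log2 fold change was -0.57 ± 0.142 (SE, edgeR adjusted p = 0.0149). Without control library 3 the call was lost (edgeR adjusted p = 0.0765). The gene lies on the minus strand of chromosome 7 at 105803206 to 105811099. The stretch just before its start is shown as a promoter of a member that fell and that no other exon overlaps. It is chr7:105811100-105811337 on the minus strand (RefSeq, GRCm38.p6), with the ETS core letters, which GABP and related factors bind, in capitals. The NRF1 string GCGCATGC also occurs, at -11 from the RefSeq start, but lies past the end of the printed stretch.

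Mrpl17 upstream stretch: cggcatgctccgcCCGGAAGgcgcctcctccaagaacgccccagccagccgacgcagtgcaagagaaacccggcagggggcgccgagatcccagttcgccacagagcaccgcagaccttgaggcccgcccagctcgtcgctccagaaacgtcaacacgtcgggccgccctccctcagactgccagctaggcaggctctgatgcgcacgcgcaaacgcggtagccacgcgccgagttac

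Mrpl38, a central protuberance protein particular to mitochondrial ribosomes, was the 1 member that rose. It was at 121, 132 and 101 CPM in tyramine libraries and 87.1, 91.5 and 86.3 CPM in control libraries. All tyramine values lay above all control values, and the log2 fold change was 0.42 ± 0.134 (SE, edgeR adjusted p = 0.0458). The call was lost on library totals without a scaling factor (log2 fold change 0.33, edgeR adjusted p = 0.112) and without any 1 library other than tyramine library 3 (edgeR adjusted p = 0.0923 to 0.149).

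**Figure D2:**
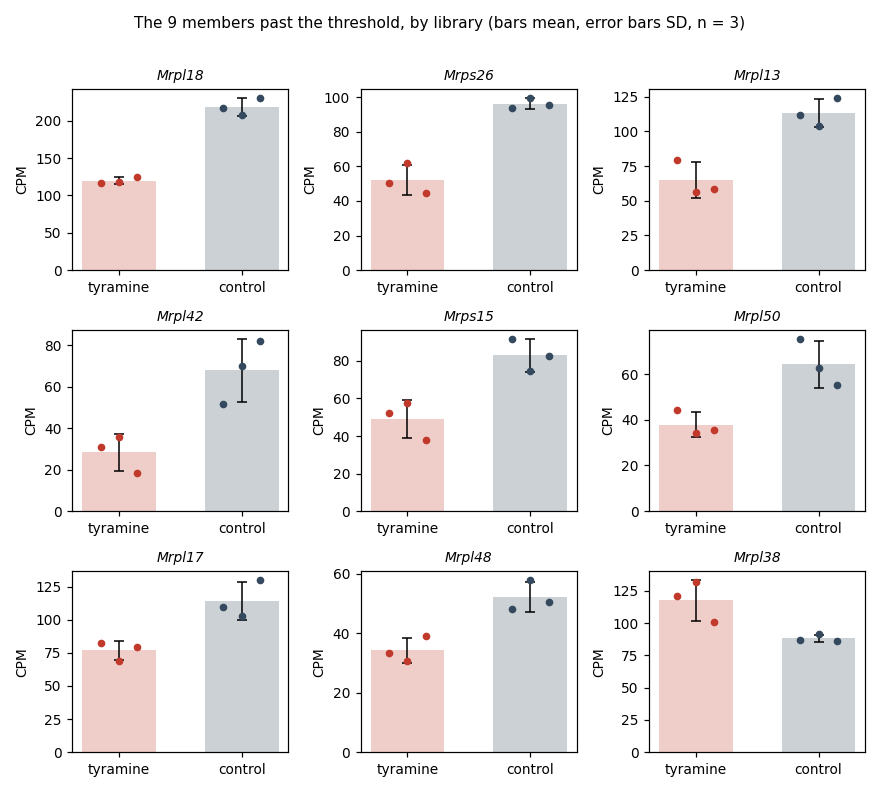
CPM of the 9 members past the threshold in each library (points), with the group mean (bars) and SD (error bars), n = 3, tyramine left and control right, ordered by p. In 8 panels the tyramine points all lie below the control points, and for Mrpl38 they all lie above.

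Among small subunit genes, 2 fell, 0 rose and 27 did not pass. With an unadjusted p under 0.05, 4 were lower and 0 higher by edgeR. The share of all genes at that cutoff was not counted, so this and the later counts at it have no background. Mrps26, a protein of the mitochondrial lineage, was at 50.1, 61.8 and 44.6 CPM in tyramine libraries and 93.5, 99.8 and 95.4 CPM in control libraries. The highest tyramine value was well below the lowest control value, and the log2 fold change was -0.88 ± 0.157 (SE, edgeR adjusted p = 0.00261). The gene lies at 130563742 to 130568695 on the plus strand of chromosome 2.

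Mrps15, whose bacterial counterpart binds the small subunit RNA early in assembly, was at 52.5, 57.3 and 37.9 CPM in tyramine libraries and 91.8, 74.4 and 82.5 CPM in controls. The log2 fold change was -0.75 ± 0.184 (SE, edgeR adjusted p = 0.0139), without overlap between groups. The call was lost without control library 1 or 3 (edgeR adjusted p = 0.0752 and 0.0569). The gene is on chromosome 4 at 126046925 to 126055532. Mrpl18, Mrps26, Mrpl13 and Mrpl42 were called whichever library was left out and in each of the 8 other settings tried.

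The large and small subunits did not separate by their fold changes. The median log2 fold change was -0.23 over the 49 Mrpl genes and -0.19 over the 29 Mrps genes, and all tyramine values lay under all control values in 12 Mrpl genes (24.5%) and 7 Mrps genes (24.1%), both near the 23.6% of all genes tested. With 1 library left out the Mrpl median was -0.26 to -0.16 and the Mrps median -0.33 (without control library 1) to -0.08 (without tyramine library 3). Of the Mrpl genes 12.2% fell and of the Mrps genes 6.9%, which is 6 and 2 genes, beside 13.3% of all genes tested. DESeq2 and limma-voom each called 4 Mrps genes lower in place of 2, the additional ones being Mrps27 and Mrps36. Of all genes, these tools called 15.5% and 15.8% lower, and 14.7% and 13.4% higher. Without control library 1 or 3, 1 Mrps gene fell, beside 8.22% and 8.37% of all genes called lower. Without tyramine library 2 or 3, 4 Mrps genes fell, beside 12.2% and 14.2% of all genes. These shares were not tested against each other.

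Summed over genes, the large subunit came to 1817, 1884 and 1608 CPM in tyramine libraries and 2101, 2149 and 2203 CPM in control libraries, so each tyramine sum lay below each control sum. The small subunit came to 1533, 1677 and 1297 CPM in tyramine libraries and 1650, 1669 and 1850 CPM in control libraries. Here the groups overlapped, tyramine library 2 lying above control libraries 1 and 2, but this depends on the scaling factor. On library totals the small subunit made up 0.149%, 0.164% and 0.125% of counts under tyramine. In control it made up 0.172%, 0.174% and 0.186%, without overlap. The ratio of large to small subunit CPM was 1.19, 1.12 and 1.24 in tyramine libraries and 1.27, 1.29 and 1.19 in controls, with overlap. All members together came to 3350, 3561 and 2905 CPM in tyramine libraries and 3751, 3818 and 4052 CPM in control libraries, or 0.279% to 0.348% and 0.391% to 0.408% of the counts. Mrps25 and Mrps5 alone gave 279 ± 38.8 and 234 ± 53.1 CPM under tyramine and 334 ± 57.5 and 279 ± 38.7 CPM in control (SD, n = 3), so the small subunit sum leans on both.

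**Figure D3:**
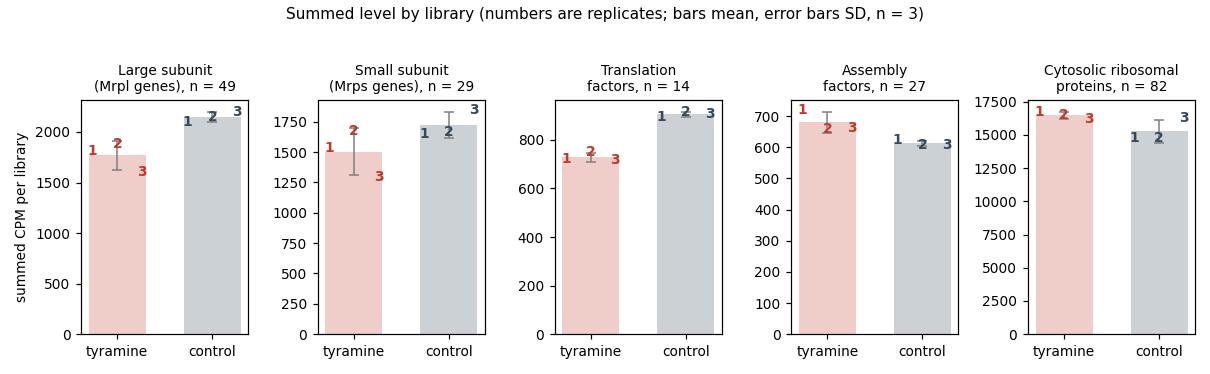
Summed CPM per library (numbers mark replicates) for large subunit, small subunit, mitochondrial translation factor, assembly factor and cytosolic ribosomal protein genes, with the mean (bars) and SD (error bars), n = 3, tyramine left and control right in each panel. The large subunit and translation factor sums are lower in every tyramine library than in any control library. The assembly factor sums are higher in every tyramine library, and the small subunit and cytosolic sums overlap. As percent of the library total, unlike CPM, the small subunit is lower in every tyramine library and the assembly factors overlap.

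Sorting the members by what is known of the ribosome's structure, instead of by symbol, left the picture as it was. Mrps18a and Mrps30 belong to the large subunit despite their names, and Mrps36 is a component of the 2-oxoglutarate dehydrogenase complex and not of the ribosome. With these placed accordingly, 6 of 51 large subunit genes fell (11.8%) and 1 rose (median log2 fold change -0.22), and 2 of 26 small subunit genes fell (7.69%, median -0.22). Of 46 members whose place in the ribosome has a bacterial counterpart 4 fell (8.7%) and 0 rose with edgeR (1 higher at an unadjusted p under 0.05, median -0.25). Of 31 whose place has none, Mrps18a and Mrps18b among them, 4 fell (12.9%) and 1 rose (3.23%, median -0.14). None of these shares exceeded the 13.3% of all genes called lower or the 12.5% called higher.

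The members with a place of their own did not pass the test. Mrps36, which links enzyme subunits of the dehydrogenase complex, was at 5.30, 2.96 and 2.89 CPM in tyramine libraries and 8.92, 9.13 and 11.6 CPM in controls. It had the lowest log2 fold change of the 78, -1.41 ± 0.468 (SE), just missing the threshold (edgeR adjusted p = 0.0505). It passed with DESeq2 (adjusted p = 0.0193), with limma-voom (adjusted p = 0.0365) and with edgeR on other scalings or a stricter filter.

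The 3 Mrps18 genes encode related proteins that sit at different places in the ribosome, and of these the product of Mrps18c takes the place of the bacterial one. Mrps18a was at 31.0, 24.9 and 29.3 CPM under tyramine and 21.2, 24.8 and 16.5 CPM in control, with a log2 fold change of 0.45 (95% interval -0.10 to 0.99). Mrps18b and Mrps18c had log2 fold changes of 0.21 (interval -0.36 to 0.79) and 0.17 (interval -0.51 to 0.85). All 3 point estimates were positive, but each interval included 0, and that of Mrps18c was -0.09 without tyramine library 2. Mrps30 was at 50.3, 57.7 and 24.4 CPM under tyramine and 40.3, 35.2 and 50.8 CPM in control, with tyramine library 3 lowest of all 6 and a log2 fold change of 0.07 (interval -0.60 to 0.74). Mrpl12, a stalk protein that also binds mitochondrial RNA polymerase, was at 82.1, 92.5 and 77.5 CPM under tyramine and 106, 100 and 87.6 CPM in control, a log2 fold change of -0.22 (interval -0.53 to 0.08).

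Mrpl55 and Mrpl28 had larger fold changes but did not pass. Mrpl55 was at 7.80, 3.52 and 1.74 CPM in tyramine libraries and 9.51, 10.3 and 8.77 CPM in controls (log2 fold change -1.13, edgeR adjusted p = 0.187). Mrpl28 was at 14.8, 5.85 and 2.54 CPM in tyramine libraries and 18.0, 18.3 and 13.0 CPM in controls (log2 fold change -1.09, edgeR adjusted p = 0.193). In both genes tyramine library 1 was near the controls and library 3 far below, and without tyramine library 1 both passed (edgeR adjusted p = 0.0377 for Mrpl55 and 0.0204 for Mrpl28).

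Mrps25, the small subunit gene with the most counts, was at 319, 275 and 242 CPM under tyramine and 285, 321 and 398 CPM in control, overlapping, with a log2 fold change of -0.26 (edgeR adjusted p = 0.226). It shares 4590 exon bases with Nr2c2 on the other strand, so part of its counts may belong to that gene.

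Some members were measured closely and differed little, and these were picked after their values were seen. Mrps11 was at 43.8, 47.7 and 45.7 CPM under tyramine and 48.6, 47.5 and 51.3 CPM in control, with a log2 fold change of -0.10 (interval -0.46 to 0.25). Mrps9 was at 124, 146 and 131 CPM under tyramine and 128, 114 and 120 CPM in control, with a log2 fold change of 0.15 (interval -0.12 to 0.41). Mrpl9 had a log2 fold change of -0.05 (interval -0.45 to 0.35) and Mrpl2 of 0.03 (interval -0.36 to 0.42). A 2-fold change in either direction lay outside each of these intervals.

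Levels can be set against each other between genes only per length. Per kilobase of annotated exon, Mrpl18 stood first in both groups, at 85.7 CPM under tyramine and 157 CPM in control. The lengths take in every annotated exon of a gene, so the order also depends on the annotation. Mrpl12 was second in both (54.8 and 64.0 CPM per kilobase) and Mrpl40 came next (49.4 and 60.0 CPM per kilobase). Unscaled, Mrpl40 ranged from 74.4 to 106 CPM over the tyramine libraries and Mrpl12 from 77.5 to 92.5 CPM, so this order is within their spread. Mrps15 stood at rank 15 under tyramine and rank 5 in control, at 29.1 and 49.0 CPM per kilobase. The median over members was 11.6 CPM per kilobase under tyramine and 14.9 in control.

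Proteins of the mitochondrial ribosome that carry other names, 5 in number, showed a median log2 fold change of -0.16. With 1 library left out it was -0.24 (without tyramine library 2) to 0.06 (without tyramine library 3). Ptcd3, a small subunit protein with RNA-binding repeats, was at 102, 90.5 and 104 CPM under tyramine and 134, 126 and 127 CPM in control and fell (log2 fold change -0.38, edgeR adjusted p = 0.0376). That call was lost without any 1 library other than tyramine library 3, up to an edgeR adjusted p of 0.128.

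Of 27 genes whose products assemble the ribosome, 0 passed the test in either direction with edgeR, DESeq2 or limma-voom, and 0 were lower and 2 higher at an unadjusted p under 0.05 with edgeR. Their median log2 fold change was 0.12, and 0.03 on library totals alone. Without tyramine library 1 it was -0.11 and 2 of them were called lower, without tyramine library 3 it was 0.15 and 1 was called higher, and without control library 2 it was 0.05. Their summed level was 720, 659 and 662 CPM in tyramine libraries and 622, 608 and 606 CPM in controls, higher in each tyramine library than in any control, a difference that was not tested. On library totals the groups overlapped, at 0.0636% to 0.0699% of counts under tyramine and 0.0610% to 0.0648% in control. Dhx30, an RNA helicase, had the smallest p of the list, at 85.5, 68.6 and 69.1 CPM under tyramine and 53.5, 57.3 and 57.8 CPM in control (log2 fold change 0.40, unadjusted p = 0.0238, edgeR adjusted p = 0.0789).

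Of 14 mitochondrial translation factor genes 2 fell (14.3%, beside 13.3% of all genes) and 0 rose with edgeR, and 4 were lower and 0 higher at an unadjusted p under 0.05. DESeq2 called 2 lower and limma-voom 3. The list had a median log2 fold change of -0.30. It was -0.46 without tyramine library 1, -0.50 without tyramine library 2 and -0.10 without tyramine library 3. Gfm1, the elongation factor that moves the ribosome along the mRNA, was at 205, 169 and 184 CPM in tyramine libraries and 272, 276 and 308 CPM in controls (log2 fold change -0.62, edgeR adjusted p = 0.00268). Gfm2, its relative that helps to split the ribosome after termination, was at 32.5, 42.2 and 55.2 CPM under tyramine and 71.5, 70.3 and 64.4 CPM in control (log2 fold change -0.67, edgeR adjusted p = 0.0367). The call of Gfm2 was lost without any 1 library other than tyramine library 3 (up to an edgeR adjusted p of 0.12).

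Of 22 genes for mitochondrial transcription and RNA handling, 2 fell (9.09%) and 1 rose (4.55%), both shares under those of all genes. The median log2 fold change was -0.16. It was -0.30, -0.25 and -0.25 without tyramine library 1, 2 or 3, and -0.08 without control library 2. DESeq2 and limma-voom each called 4 lower and 2 higher. Lrpprc, which binds and stabilises mitochondrial mRNAs, was at 112, 87.7 and 109 CPM under tyramine and 184, 187 and 201 CPM in control (log2 fold change -0.89, edgeR adjusted p = 0.000718). Ptcd2, needed for processing of a mitochondrial mRNA in mice, was at 31.3, 19.6 and 18.8 CPM under tyramine and 43.4, 44.6 and 42.3 CPM in control (log2 fold change -0.90, edgeR adjusted p = 0.0203). Its call was lost without tyramine library 2 or any 1 control library (up to an edgeR adjusted p of 0.0795). Mterf1b rose at low counts (122, 81 and 141 counts in tyramine libraries, 5, 17 and 23 in controls, edgeR adjusted p = 0.0478) and has a close copy in the mouse genome, so its counts are uncertain. Its call was lost in every leave-out but that of tyramine library 2 (up to an edgeR adjusted p of 0.153). The 13 mRNAs and 2 ribosomal RNAs of the mitochondrial genome were not analysed here.

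Of 12 regulators of nuclear mitochondrial genes 3 fell (25%, beside 13.3% of all genes) and 0 rose with edgeR, and 4 were lower and 1 higher at an unadjusted p under 0.05. DESeq2 and limma-voom each called 4 lower and 1 higher. The median log2 fold change was -0.07, but 0.16 under the stricter filter, -0.16 on library totals alone, -0.19 without tyramine library 1 and 0.03 without tyramine library 2, and it was near 0 without control library 1. With 1 library left out 1 (without control library 2) to 4 of them fell. Ppargc1b, a coactivator of mitochondrial genes, was at 8.08, 7.33 and 6.58 CPM under tyramine and 19.4, 21.1 and 16.4 CPM in control (log2 fold change -1.37, edgeR adjusted p = 0.00876), a call lost without control library 2 (edgeR adjusted p = 0.0604). Esrra, a nuclear receptor that acts with such coactivators, was at 39.9, 42.3 and 26.3 CPM under tyramine and 71.5, 71.2 and 62.5 CPM in control (log2 fold change -0.92, edgeR adjusted p = 0.00885). Mycn, a MYC family factor, had 0, 4 and 0 counts in tyramine libraries and 75, 28 and 37 counts in controls (edgeR adjusted p = 0.0471), and its call was lost without tyramine library 1 or 3 or any 1 control library (up to an edgeR adjusted p of 0.168).

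Of 25 genes for mitochondrial protein import 4 fell (16%, beside 13.3% of all genes) and 0 rose with edgeR, DESeq2 and limma-voom alike, and 5 were lower and 0 higher at an unadjusted p under 0.05 with edgeR. The median log2 fold change was -0.36. Dnajc19, a part of the import motor, was at 27.8, 24.9 and 28.3 CPM under tyramine and 54.1, 53.6 and 54.2 CPM in control (log2 fold change -0.999, edgeR adjusted p = 0.00223). Timm8a1, Timm21 and Timm44, parts of the inner membrane import path, had log2 fold changes of -1.16, -0.89 and -0.49 (edgeR adjusted p = 0.0172, 0.0178 and 0.0219). Without control library 1 or control library 3, 1 import gene was called lower, beside 8.22% and 8.37% of all genes.

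**Figure D4:**
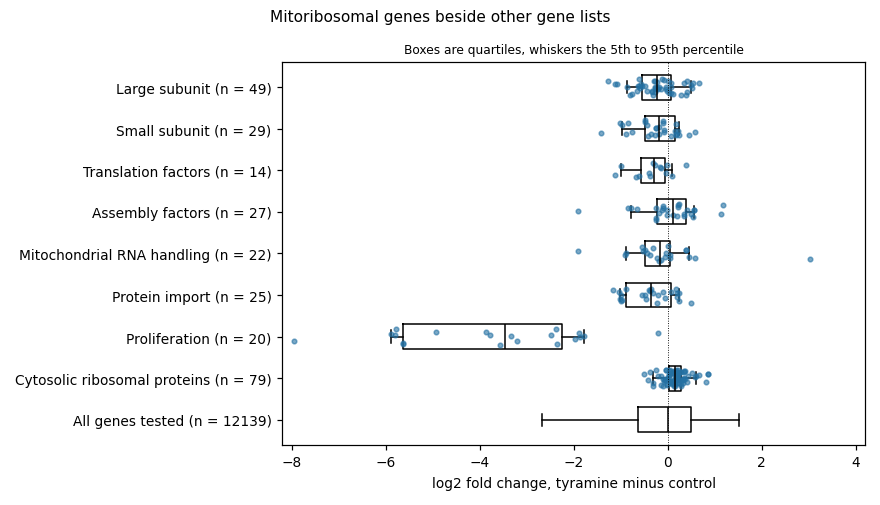
Log2 fold change, tyramine minus control, of each tested gene (points) in 8 lists, and of all 12139 genes tested without points, with medians, quartiles (boxes) and the 5th to 95th percentile (whiskers). Both mitoribosomal subunits centre slightly left of 0, cytosolic ribosomal proteins slightly right of it, and proliferation genes far to the left with a median of -3.46.

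Genes for the proteins of the cytosolic ribosome had a small median change of the opposite sign, and their summed levels overlapped between groups. Of 79 such genes tested 1 fell (1.27%) and 4 rose (5.06%), under the 13.3% and 12.5% of all genes. Their median log2 fold change was 0.15, 0.10 without control library 1, and 0.07 on library totals alone, where 3 fell and 1 rose. With 1 library left out, 0 to 2 fell and 0 to 3 rose with edgeR, and in the fit of all 6 libraries 3 were lower and 11 higher at an unadjusted p under 0.05. Rpl3 fell (log2 fold change -0.31, edgeR adjusted p = 0.0214), while Rpl24, Rpl19, Rplp0 and Rps14 rose (log2 fold changes 0.86, 0.28, 0.30 and 0.32). Many of these genes have processed copies in the genome, so their counts are uncertain. The summed CPM of mitochondrial over that of cytosolic ribosomal protein genes was 0.200, 0.216 and 0.180 in tyramine libraries and 0.254, 0.258 and 0.249 in control libraries, without overlap. The difference in ratio was not tested.

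Proliferation genes moved far more than any of these lists. Of 20 tested 19 fell, and their summed level was 366, 432 and 334 CPM in tyramine libraries and 3440, 3865 and 4029 CPM in controls. Mki67, a marker of cycling cells, was at 25.9, 24.9 and 24.2 CPM under tyramine and 1281, 1426 and 1488 CPM in control (log2 fold change -5.81, edgeR adjusted p = 2.42e-09). Rrm2 and Aurka, a ribonucleotide reductase subunit and a mitotic kinase, had log2 fold changes of -5.62 and -3.86. Whether this difference in cycling genes has a part in the change of the mitoribosomal genes was not tested.

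The members lie on 17 chromosomes, and many share their start region with a neighbour. In 18 of 78 (23.1%) a coding gene on the other strand starts within 1000 bases and runs away from it without overlap. This held for 10.7% of 11438 tested coding genes. Pairs that overlap at their starts, such as Mrps11 and Mrpl46, were not counted. Of the 17 counted neighbours that were tested 3 fell, 2 rose and 12 did not pass, beside the 13.3% and 12.5% of all genes given above. The neighbours named here were chosen after their values were seen. Mrps27, a small subunit protein with RNA-binding repeats, and Ptcd2 start 81 bases apart. Mrps27 was at 21.1, 28.9 and 9.29 CPM under tyramine and 46.6, 38.2 and 36.2 CPM in control, and its log2 fold change of -1.03 did not pass (edgeR adjusted p = 0.0632), although DESeq2 called it (adjusted p = 0.0199). Ptcd2, given above, fell by a log2 fold change of -0.90.

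Other pairs varied. In some both fold changes were close, as for Mrpl30 and Mitd1 (0.06 and 0.04) and Mrps12 and Sars2 (-0.41 and -0.49), none of them past the threshold. In the pairs that follow, the fold changes differed in size or a single gene of the pair was called. Ncapd2, a condensin subunit needed in mitosis, starts 100 bases from Mrpl51 and was at 11.1, 13.4 and 4.63 CPM under tyramine and 78.0, 86.3 and 73.8 CPM in control (log2 fold change -3.03, edgeR adjusted p = 0.000191). Mrpl51 was at 44.8, 83.6 and 68.4 CPM under tyramine and 94.4, 92.4 and 79.5 CPM in control, overlapping, with a log2 fold change of -0.44 (edgeR adjusted p = 0.172). Klc4, a kinesin light chain, starts 207 bases from Mrpl2 and fell (log2 fold change -0.71, edgeR adjusted p = 0.00236), beside 0.03 for Mrpl2. Psma2, a proteasome subunit, rose (0.96) beside Mrpl32 (0.50, not past), and Ppp1r10, a phosphatase regulator, rose (0.93) beside Mrps18b (0.21, not past). Zfp189, the neighbour of Mrpl50, did not pass (-0.13). Within-pair differences were not tested.

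**Figure D5:**
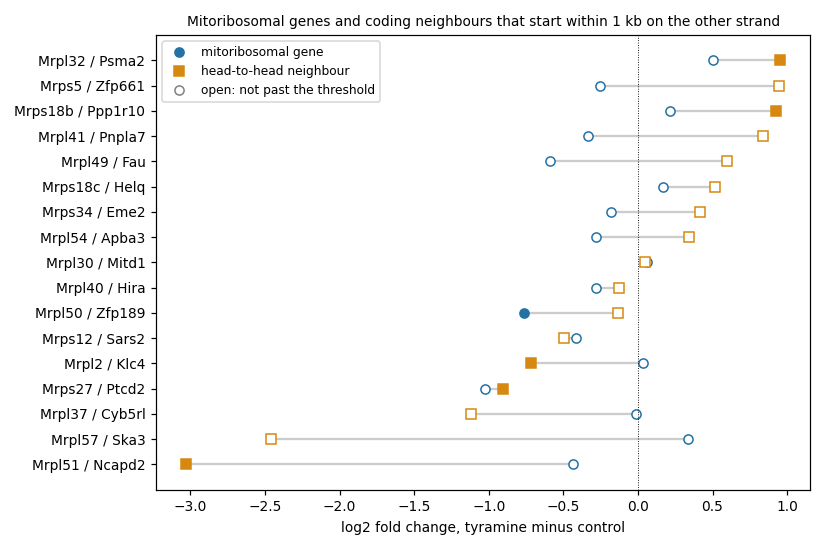
Log2 fold change, tyramine minus control, of 17 mitoribosomal genes (circles) and the coding neighbour that starts within 1000 bases on the other strand (squares), with open symbols for genes not past the threshold. Mrps27 and Ptcd2 lie close together near -1, while Mrpl51 and Ncapd2 lie far apart at -0.44 and -3.03.

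The stretches between the starts are shown for 3 pairs: 1 in which both genes had a log2 fold change near -1, 1 in which only the member fell, and 1 in which only the neighbour fell. They were read from RefSeq (GRCm38.p6), 5′ to 3′ on the strand of the member, with ETS or E-box letters, on either strand, in capitals. The first is chr13:99344706-99344785 on the plus strand, the second chr4:49521094-49521175 on the minus strand, and the third chr17:46646023-46646228 on the plus strand.

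Mrps27 to Ptcd2: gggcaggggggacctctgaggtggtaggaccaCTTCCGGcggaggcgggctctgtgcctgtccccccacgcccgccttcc
Mrpl50 to Zfp189: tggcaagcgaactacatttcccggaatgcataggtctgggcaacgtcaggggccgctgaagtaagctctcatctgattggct
Mrpl2 to Klc4: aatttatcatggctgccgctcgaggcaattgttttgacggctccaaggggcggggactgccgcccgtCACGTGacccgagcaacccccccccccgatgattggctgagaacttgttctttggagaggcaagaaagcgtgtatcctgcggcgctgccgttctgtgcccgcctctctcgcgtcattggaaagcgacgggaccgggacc

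Windows of 250 bases before to 50 after the start were at hand for 69 members, with 75 windows, and were searched on both strands for 4 motifs. The ETS core CCGGAAG, a letter string bound by GABP, was in windows of 26 members (37.7%), against 21.0% of tested genes with a window. The YY1 string AAGATGGC was in 12 members (17.4%) and 5.46% of tested genes. The NRF1 string GCGCATGC was in 8 members (11.6%) and 6.18% of tested genes, and the E-box CACGTG, bound by MYC and related factors, in 5 members (7.25%) and 11.9%. None of these strings is part of another. Over all genes with a window the shares were 9.93% for ETS, 3.19% for YY1, 3.05% for NRF1 and 8.09% for the E-box. Of the 7 falling members with a window, 4 held the ETS string, 1 each held those of NRF1 and YY1, and 0 held the E-box. By window the ETS share was 4 of 10 (40.0%) in falling members, beside 26 of 75 (34.7%) in all members. Mrpl48 had several windows, and its ETS match lay in only 1 of them, inside the gene. Among members that did not pass, with the rising member not among those with a window, 22 of 62 (35.5%) held the ETS string. A match describes letters in the window and not a bound site, and the shares were not tested.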

How the data were processed

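The authors deposited 1 table of raw counts per gene symbol, with 1 column per library, and its column names match the sample titles. Libraries were made from 2 µg of RNA with a strand-keeping mRNA kit that adds identifiers of 8 bases, and read as 150-base pairs, per the labels' protocols. STAR 2.5.3a and the build mm10 are named in the submitters' processing notes. Not given in the sources used here: how reads were counted, with which annotation and strand setting, and whether identifiers were collapsed. Values of 1 to 8 counts were even in 72.6% to 78.7% of cases per library, so a count may not be 1 independent molecule.

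From the counts, genes were filtered with filterByExpr in edgeR 4.0.16 (R 4.3.3, minimum count 10, minimum total 15), scaled by TMM and tested with the quasi-likelihood F-test with robust estimation. The fit held all 6 libraries with group as its only term, and p-values were adjusted by Benjamini-Hochberg over all 12139 genes tested. CPM are counts scaled to the library total times its TMM factor. The SE is the log2 fold change over the square root of F. Of the names, 26 looked like dates and 2 occurred more than once, and all were kept in the fit. The code was tested on simulated data.

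The members, gene lists and tests were chosen with earlier results of these data known. Genes were named by rule: called members by smallest p, the 3 uncalled members with the largest fold change, 6 members with a place of their own (Mrps18a, Mrps18b, Mrps18c, Mrps30, Mrps36 and Mrpl12), the most counted member of each subunit, and up to 3 called genes per direction in each other list, or the gene with the smallest p. In the lists whose genes are not described, that gene was Thy1 for fibroblasts (log2 fold change 0.76, edgeR adjusted p = 0.68) and Cd74 for immune cells (log2 fold change 1.25, edgeR adjusted p = 0.525). Some genes picked by the rule are not reported here. No endothelial marker passed the filter. Any further gene was picked once its values were known. Gene positions and exon lengths are those of GENCODE M21 on GRCm38, and start regions those of RefSeq on GRCm38.p6.

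Alternatives were size factors of the DESeq2 kind, library totals alone, no filter, a stricter filter (50 counts in 3 libraries), DESeq2 1.42.0, limma-voom (limma 3.58.1), robust estimation off, a replicate block, each library left out, and subunits by structure.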

Additional observations from a re-analysis of the deposited data

How the results depend on the processing

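The members' median log2 fold change was -0.31 on library totals alone, -0.23 to -0.26 in the other 7 settings that kept all libraries, -0.20 to -0.27 without tyramine library 1 or 2 or control library 1 or 2, -0.16 without control library 3 and -0.11 without tyramine library 3. The number of genes called over the whole table was 3127, and 1977 to 3307 with 1 library left out, fewest without a control library. Leaving out 1 library gave 5 to 11 members that fell, 4 to 7 Mrpl genes and 1 to 4 Mrps genes among them, and 0 to 2 that rose. No member rose on library totals alone or with no filter on low counts (0 in each, against 1). DESeq2 and limma-voom each called 4 Mrps genes lower, against 2, and 15.5% and 15.8% of all genes, against 13.3%. The replicate numbers of the titles did not pair the libraries: deviations of same-numbered libraries correlated at -0.024, -0.015 and 0.006. With the numbers as a replicate block, 8 members fell and 0 rose, and 7 of these were among the 9 called without it: Mrpl48 and Mrpl38 lost their calls and Mrps27 gained one. In that fit 1390 genes were lower and 1204 higher. No called member, and no called gene of the other lists apart from the cytosolic ribosomal proteins, changed sign in these settings. None of the members' or subunits' medians changed sign either. Other genes called in the full fit were not checked for a change of sign. Precision limits what can be said of small changes. The members' median SE, from a fit of both groups, was 0.257 on the log2 scale, beside 0.324 over all genes tested. How far the higher scatter among tyramine libraries adds to this SE was not tested.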
